A study of Mus musculus with 16 samples.

Results

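Hlf, Mecom, Mllt3 and Prdm16 encode transcription regulators that maintain haematopoietic stem cells, and they were followed here through 16 mouse bone marrow RNA-seq libraries. They were chosen by gene symbol, as 4 of the 45706 Ensembl gene IDs in the deposited count table, and each symbol matched 1 ID. Haematopoietic stem cells are rare marrow cells that both renew themselves and produce all blood lineages, and these genes are among those that mark them. HLF is a leucine zipper protein of the PAR family that binds DNA as a dimer and keeps stem cells quiescent. MECOM (also known as EVI1) and PRDM16 are related zinc finger proteins that recruit corepressors and histone methyltransferases, and mice lacking either lose stem cells. MLLT3 (also known as AF9) reads acylated histone H3 through its YEATS domain and brings elongation factors or the methyltransferase DOT1L to active genes, and in human cord blood it maintains stem cells.

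The study asked how blood formation with reduced GATA2, a zinc finger factor needed by stem cells, bears a challenge in which few sorted LSK cells are transplanted into irradiated WT recipients. LSK cells are marrow cells without lineage markers that carry Sca-1 and Kit, a fraction that holds the stem cells and early progenitors. The groups were LSK cells labelled Gata2 at Day0 (n = 3), LSK cells labelled WT at Day0 (n = 2), LSK cells labelled Gata2 at Day2 (n = 2), LSK cells labelled WT at Day2 (n = 3), and CD45.2 bone marrow cells labelled Gata2 (n = 3) or WT (n = 3) at Week2. The series' design text calls the system haploinsufficient for GATA2. The sample labels give no allele, strain, age or sex, do not say what separates Day0 from Day2, and do not say whether replicates came from separate animals, so p-values measure the spread between these libraries. The Week2 samples are labelled as CD45.2 marrow cells, although the extraction protocol speaks of lineage-negative cells.

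Total counts ran between 19618830 and 68305582 in the LSK libraries, lowest in WT replicate 1 of Day0, and between 176933583 and 320717267 in the Week2 libraries. All 8 LSK and stem cell markers were at 1 CPM (read counts scaled to a common library total) or more in every LSK library. In the Week2 libraries 6 neutrophil genes summed to between 16911 and 85216 CPM. Gata2 RNA read higher on average, and not lower, under the Gata2 label: it averaged 680 ± 71.0 CPM in Gata2-labelled LSK cells of Day0 and 388 ± 82.2 CPM in WT at Day0 (SD, n = 3 and 2), and 614 ± 174 CPM in those of Day2 and 271 ± 17.6 CPM in WT at Day2 (SD, n = 2 and 3). The genotype is therefore named below as the label gives it, and an exchange of labels, which was not tested, would turn the direction of each genotype difference. The Day0 WT library of replicate 1 stood apart from its partner, with a correlation of 0.842 between their log2 CPM values across genes, against at least 0.978 for every other pair of LSK replicates. Results that rest on that library are given with and without it. By Xist and Ddx3y, WT replicate 2 and the Gata2-labelled replicate 3 of Day0 and the Gata2-labelled replicate 3 of Week2 came from females and the others from males.

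The 4 genes lie on the minus strand of mm10, and the stretch before each transcription start is shown because it is where sequence shared by the members, or a GATA motif, could be looked for. Hlf spans chr11:90336536-90390895, Mecom chr3:29951296-30548008, Mllt3 chr4:87769925-88033364 and Prdm16 chr4:154316125-154636873. The Mecom window precedes a RefSeq start inside the annotated span of the gene, not its outer end. RefSeq windows of the GRCm38.p6 build were found for all 4 by symbol. The lines give the 150 bases before the start of each member's first window, 5′ to 3′ on the minus strand, at chr11:90390918-90391067, chr3:30509760-30509909, chr4:88033408-88033557 and chr4:154636874-154637023, with every match to a searched motif in capitals.
Hlf: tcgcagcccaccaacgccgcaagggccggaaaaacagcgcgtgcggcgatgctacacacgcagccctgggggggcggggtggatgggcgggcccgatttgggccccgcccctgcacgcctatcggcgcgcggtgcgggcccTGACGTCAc
Mecom: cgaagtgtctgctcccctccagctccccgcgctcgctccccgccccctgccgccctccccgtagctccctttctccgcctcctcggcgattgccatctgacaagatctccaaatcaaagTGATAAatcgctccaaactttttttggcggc
Mllt3: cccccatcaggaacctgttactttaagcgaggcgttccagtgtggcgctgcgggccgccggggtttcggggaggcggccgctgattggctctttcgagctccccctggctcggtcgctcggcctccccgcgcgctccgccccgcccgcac
Prdm16: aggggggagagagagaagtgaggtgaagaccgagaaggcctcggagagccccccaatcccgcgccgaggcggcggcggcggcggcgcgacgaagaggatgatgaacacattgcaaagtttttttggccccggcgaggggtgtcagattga
The motifs searched on both strands were the GATA motifs AGATAA and TGATAA, the PAR bZIP motifs TTACGTAA and TTATGTAA, the ETS motif CCGGAAG and the palindrome TGACGTCA, the last one added after the Hlf sequence was seen. TGATAA begins 31 bases before the Mecom start, and TGACGTCA begins 9 bases before the Hlf start and reads the same on both strands. Of 32817 windows of 300 bases, 9.06% held TGATAA, 18.6% held either GATA motif, 8.86% held CCGGAAG and 1.79% held TGACGTCA. No searched motif was found in the first windows of Mllt3 and Prdm16. Mecom and Prdm16, the 2 related zinc finger genes, share an unbroken run of 24 bases just after the start, at chr3:30509710-30509733 in Mecom and chr4:154636841-154636864 in Prdm16. Of the 32817 windows it occurred in 2, the Mecom and Prdm16 windows from which it was taken.
Shared run of Mecom and Prdm16: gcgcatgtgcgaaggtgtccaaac

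Hlf was by far the most abundant of the 4 per length of transcript in LSK cells, and Mllt3 was the most abundant in the Week2 marrow. Levels are given in CPM with TMM scaling, and between genes in CPM per kilobase of annotated exon. At Day0 Hlf averaged 19.2 ± 2.66 CPM per kilobase in Gata2-labelled cells and 32.6 ± 5.33 in WT cells (SD, n = 3 and 2). In the Gata2-labelled cells Prdm16 followed with 2.52 ± 0.592, Mecom with 2.42 ± 0.511 and Mllt3 with 2.28 ± 0.0632 CPM per kilobase, and these 3 genes did not differ beyond their spread. At Day2 Hlf averaged 13.1 ± 1.28 CPM per kilobase in Gata2-labelled cells and 14.8 ± 1.28 in WT cells (SD, n = 2 and 3), while the other members lay between 1.29 and 2.32 in their group means. At Week2 the order was another one: Mllt3 averaged 1.09 ± 0.324 CPM per kilobase in Gata2-labelled marrow and 1.05 ± 0.300 in WT marrow (SD, n = 3 each), and the other 3 genes lay between 0.181 and 0.356, within each other's spread.

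**Figure D1:**
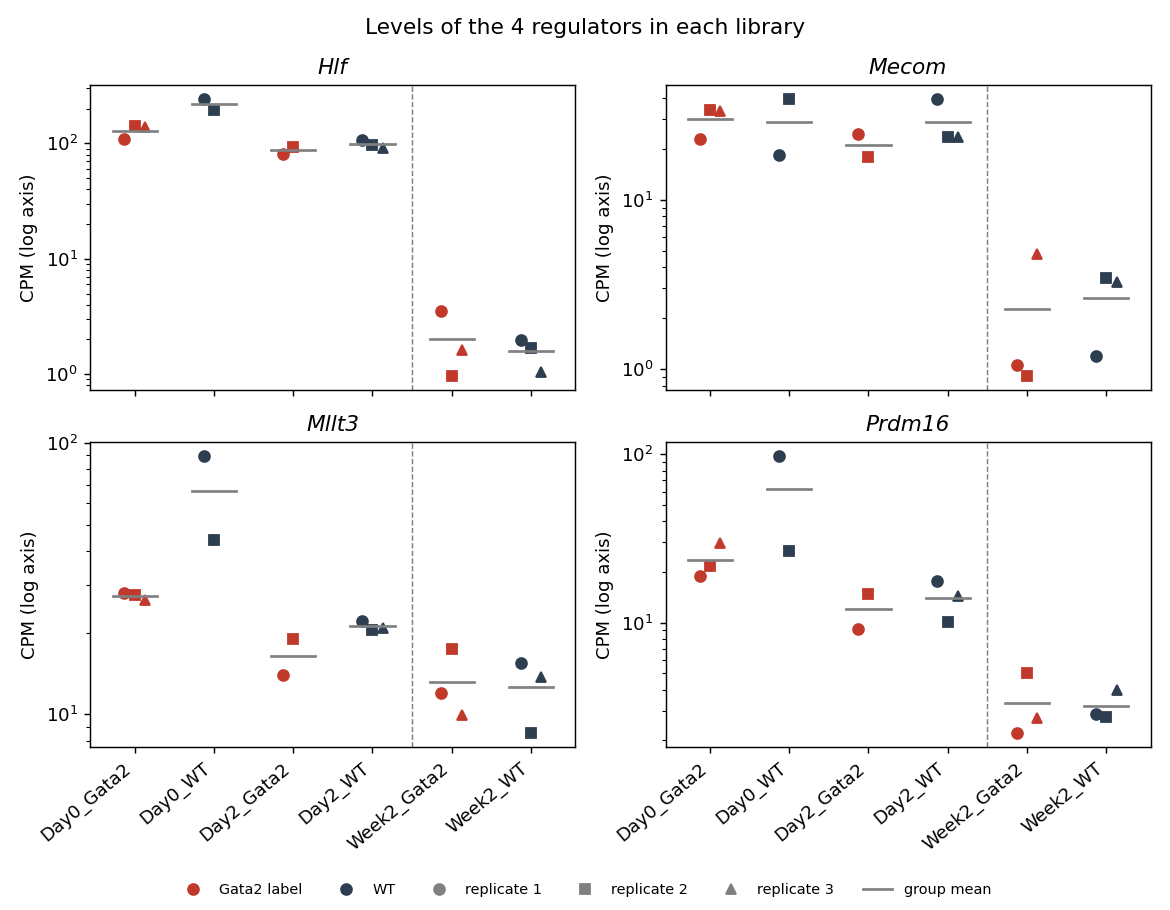
Each point is the level of 1 gene in 1 library, in TMM-scaled CPM on a log axis, with the group mean as a bar; LSK cells (Day0, Day2) stand left of the dashed line and CD45.2 marrow (Week2), scaled separately, right of it. Hlf and Mllt3 are highest in both Day0 WT libraries, which lie far apart for Mllt3. Prdm16 is highest in Day0 WT replicate 1 (97.7 CPM), while replicate 2 (26.6 CPM) lies among the Gata2-labelled values of Day0. Mecom overlaps between all LSK groups.

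At Day0, Hlf and Mllt3 read lower in every Gata2-labelled library than in either WT library, Prdm16 was lower on average beside 1 high WT library, and Mecom overlapped. None of the 4 passed the test over all genes. Hlf was 108, 140 and 137 CPM in the Gata2-labelled libraries, against 243 and 193 CPM in the WT libraries. Its groups did not overlap, and the log2 difference was −0.76 ± 0.16 (SE, adjusted p = 0.341). Mllt3 was 27.97, 27.5 and 26.5 CPM in the Gata2-labelled libraries, against 89.6 and 44.0 CPM in the WT libraries. The Gata2-labelled values lay close together below both WT values, which lay far apart, with a log2 difference of −1.29 ± 0.28 (SE, adjusted p = 0.341).

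Prdm16 was 19.0, 21.8 and 29.6 CPM in the Gata2-labelled libraries of Day0, against 97.7 and 26.6 CPM in WT. Replicate 1 of WT was high while replicate 2 lay among the Gata2-labelled values, and the log2 difference was −1.40 ± 0.49 (SE, adjusted p = 0.341). Mecom was 22.8, 34.0 and 33.5 CPM in the Gata2-labelled libraries, against 18.4 and 39.2 CPM in WT, so the WT pair enclosed all 3 others (log2 difference 0.06 ± 0.37, SE, adjusted p = 0.950). By edgeR's quasi-likelihood test with Benjamini-Hochberg adjustment, 0 of the 4 members and 0 of all 19162 genes passed 0.05 at Day0 (0% of the genes). At an unadjusted p under 0.05 there were 3 members (Hlf, Mllt3 and Prdm16) and 2586 genes. DESeq2 called 2 members, with adjusted p = 0.013 for Hlf and 0.00624 for Mllt3, among 417 genes, and limma with voom quality weights called 0 members and 0 genes. For comparison with Hlf and Mllt3, 14.2% of all genes had every Gata2-labelled library below every WT library.

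The Day0 differences of Hlf, Mllt3 and Prdm16 were smaller without WT replicate 1. They were called without WT replicate 2, in a fit that called 39.9% of all genes, and Mecom was called in neither. Without replicate 1, the log2 difference was −0.59 for Hlf, −0.69 for Mllt3, −0.18 for Prdm16 and −0.38 for Mecom, and no member was called. Without replicate 2 it was −0.73 for Hlf (adjusted p = 0.0154), −1.52 for Mllt3 (adjusted p = 0.000314), −1.86 for Prdm16 (adjusted p = 0.00312) and 0.91 for Mecom (adjusted p = 0.0848, edgeR). The lone WT library is then assumed to vary as the other groups do. Over all fits that left out 1 library, the adjusted p of Hlf, Mllt3 and Prdm16 reached 1 at the highest. WT replicate 1 also held 0.362% of its counts in genes typed TEC, short unannotated loci to be tested by experiment, against 0.187% in WT replicate 2 and between 0.131% and 0.159% in the Gata2-labelled libraries. The endothelial marker genes summed to between 18.5 and 25.6 CPM in the Gata2-labelled libraries, against 49.7 CPM in WT replicate 1 and 23.8 CPM in WT replicate 2. B cell genes summed to between 58.4 and 84.1 CPM in the Gata2-labelled libraries, against 123 CPM in WT replicate 1 and 54.4 CPM in WT replicate 2, and neutrophil genes to between 153 and 269 CPM, against 75.9 and 168 CPM in WT. The loci Gm26917, CT010467.1, Lars2 and Gm23935, summed as repeat-rich, took between 5.10% and 5.83% of counts in the Gata2-labelled libraries, against 9.33% and 6.51% in WT. Emcn made up 41.4 CPM of the endothelial sum in WT replicate 1, while Cdh5, a defining endothelial gene, was at most 0.838 CPM in any LSK library. The part of these features in the 4 genes' values was not tested.

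**Figure D2:**
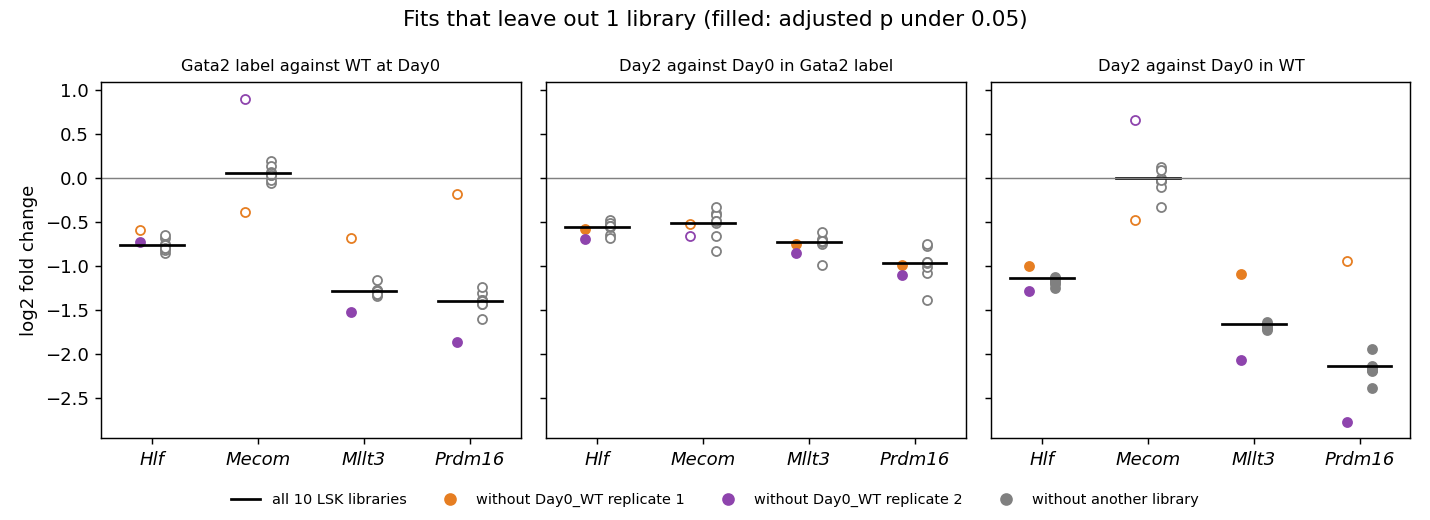
Points are log2 fold changes of each member in edgeR fits that leave out 1 of the 10 LSK libraries, filled where the adjusted p is under 0.05, and the bar is the value with all 10; panels are Gata2 label against WT at Day0, Day2 against Day0 in Gata2-labelled cells, and Day2 against Day0 in WT. Leaving out either Day0 WT library moves Prdm16 between −0.18 and −1.86 and Mecom between −0.38 and 0.91 in the first panel.

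In WT LSK cells, Hlf, Mllt3 and Prdm16 were lower at Day2 than at Day0, each past the test, and Mecom was not called. Hlf was 108, 97.2 and 91.1 CPM at Day2, against 243 and 193 CPM at Day0. All Day2 values were below both Day0 values, and the groups differed by −1.14 ± 0.16 in log2 (SE, adjusted p = 0.00168). Mllt3 was 22.1, 20.5 and 20.9 CPM at Day2, against 89.6 and 44.0 CPM at Day0, with no overlap (log2 fold change −1.66 ± 0.28, SE, adjusted p = 0.00326). Prdm16 was 17.7, 10.05 and 14.5 CPM at Day2, against 97.7 and 26.6 CPM at Day0, also without overlap (log2 fold change −2.14 ± 0.49, SE, adjusted p = 0.0125). Mecom was 39.4, 23.5 and 23.4 CPM at Day2, against 18.4 and 39.2 CPM at Day0. Its Day2 values lay within or just above the range of the Day0 pair, and the groups differed by −0.00 ± 0.37 in log2 (SE, adjusted p = 0.996).

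Of the 4 members, 3 were thus called lower in WT, where 29.9% of all genes were called and 17.9% were called lower. A full separation of the groups, as in Hlf, Mllt3 and Prdm16, was seen with Day2 lower in 26.7% of all genes. Leaving out Day0 WT replicate 1 kept the call for Hlf (log2 fold change −0.996, adjusted p = 0.00369) and Mllt3 (−1.09, adjusted p = 0.00329) and lost it for Prdm16 (−0.95, adjusted p = 0.0856). Leaving out Day0 WT replicate 2 gave −1.29 for Hlf, −2.07 for Mllt3 and −2.78 for Prdm16, each called, with adjusted p for Prdm16 between 0.000199 and 0.0856 over all fits that left out 1 library. The share of all genes called was 23% without replicate 1 and 57.1% without replicate 2. With the WT groups alone in the fit, Prdm16 was not called (−2.21, adjusted p = 0.0704), Hlf and Mllt3 were, and 6.81% of all genes were called. With limma's voom quality weights 1 of the members, Mllt3, was called, among 6.96% of all genes.

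In Gata2-labelled LSK cells the same 3 genes read lower at Day2 in every library, and none passed the test with all libraries in the fit. With all libraries each fell by less than in WT. Without Day0 WT replicate 1 this no longer held for Prdm16 (log2 fold change −0.99, against −0.95 in WT). Hlf was 81.2 and 93.3 CPM at Day2, against 108, 140 and 137 CPM at Day0 (log2 fold change −0.56 ± 0.17, SE, adjusted p = 0.0713). Mllt3 was 14.0 and 18.9 CPM at Day2, against 27.97, 27.5 and 26.5 CPM at Day0 (log2 fold change −0.73 ± 0.29, SE, adjusted p = 0.147). The groups did not overlap for either gene. Prdm16 was 9.15 and 14.8 CPM at Day2, against 19.0, 21.8 and 29.6 CPM at Day0, again apart (log2 fold change −0.97 ± 0.51, SE, adjusted p = 0.273). Mecom was 24.4 and 18.0 CPM at Day2, against 22.8, 34.0 and 33.5 CPM at Day0, with overlap (log2 fold change −0.51 ± 0.38, SE, adjusted p = 0.462).

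Here 0 of 4 members were called, where 9.3% of all genes were called and 4.82% were called lower, and 34.4% of all genes had every Day2 library below every Day0 library. By unadjusted p under 0.05 there were 2 members (Hlf and Mllt3) and 4871 genes, or 25.4% of all genes. DESeq2 called 1 member, among 18.1% of all genes, and limma with voom quality weights called 2, among 21.3%. The spread of this test is shared with the WT groups. With the Gata2-labelled groups alone in the fit, 3 members were called, as they were without either Day0 WT library. The share of all genes called was then 31.9% with these groups alone, 24.3% without WT replicate 1 and 21.2% without WT replicate 2. Without WT replicate 1, Hlf had a log2 fold change of −0.58 (adjusted p = 0.0180), Mllt3 −0.75 (adjusted p = 0.00795) and Prdm16 −0.99 (adjusted p = 0.0424), against adjusted p of up to 0.282, 0.432 and 0.626 for these genes when another library was left out (edgeR).

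Whether these changes differ between the genotypes was tested directly, and no member passed. The genotype difference of the Day2 against Day0 change was 0.58 ± 0.23 for Hlf (SE, adjusted p = 0.465), 0.93 ± 0.39 for Mllt3 (SE, adjusted p = 0.472), 1.17 ± 0.69 for Prdm16 (SE, adjusted p = 0.553) and −0.50 ± 0.53 for Mecom (SE, adjusted p = 0.717), in log2 units. No member and 0% of all genes were called by edgeR, although 2 members (Hlf and Mllt3) and 1984 genes had an unadjusted p under 0.05, DESeq2 called 216 genes and limma called 0. Without Day0 WT replicate 1 the difference was 0.42 for Hlf, 0.34 for Mllt3 and −0.04 for Prdm16. Without replicate 2 it was 1.21 for Mllt3 (adjusted p = 0.00678) and 1.68 for Prdm16 (adjusted p = 0.0264), against adjusted p of up to 0.829 and 1.0 over the fits that left out another library. That fit called 31.1% of all genes.

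**Figure D3:**
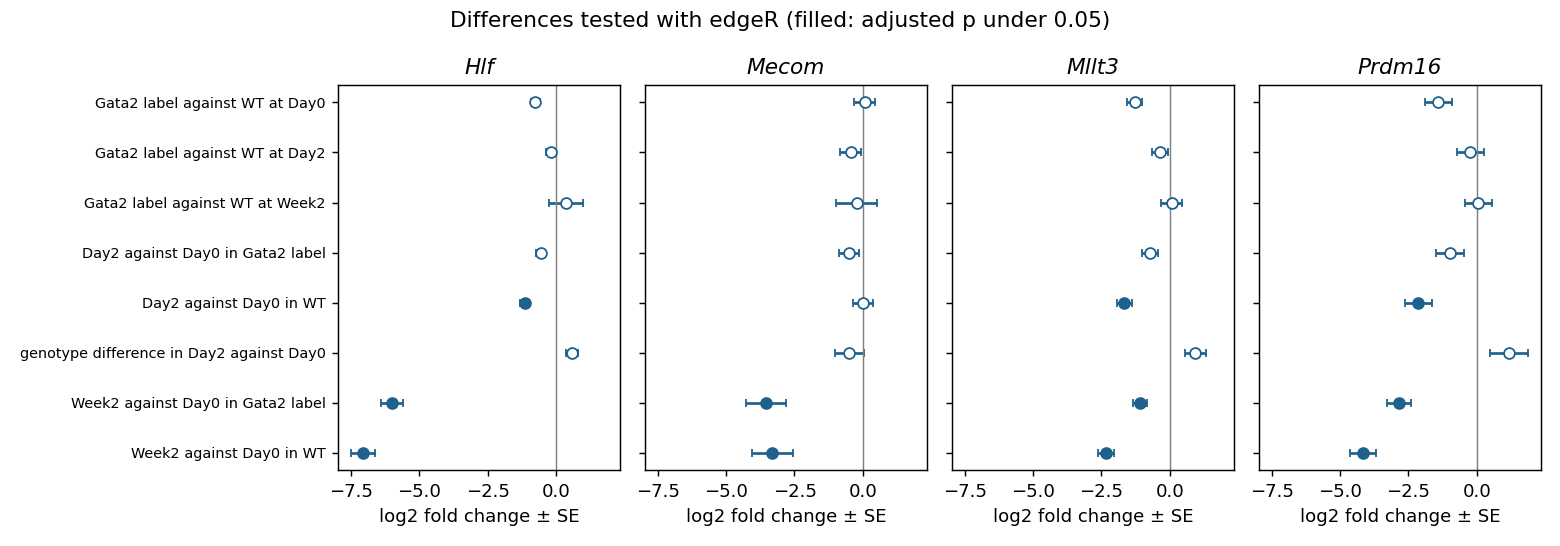
Log2 fold changes of the 4 genes with their standard errors in 8 comparisons (edgeR), filled where the adjusted p is under 0.05. Mecom is unfilled in every comparison within LSK cells, the other 3 genes are filled for Day2 against Day0 in WT, and all 4 are filled and lower for Week2 marrow against Day0 LSK cells.

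Markers of the LSK fraction moved between Day0 and Day2 as well. Procr, a receptor that marks stem cells, ran between 1.58 and 6.16 CPM at Day2 and between 16.8 and 26.8 CPM at Day0 over both genotypes. Flt3, a receptor of multipotent progenitors, ran between 68.6 and 126 CPM at Day2 and between 447 and 556 CPM at Day0. All 5 megakaryocyte genes rose at Day2 in each genotype, and their sum ran between 1586 and 2196 CPM at Day2 and between 218 and 335 CPM at Day0. All 6 neutrophil genes read higher at Day2 in each genotype. Of them, 2 were called with the Gata2 label and 6 in WT, where 9.3% and 29.9% of all genes were called. Without Day0 WT replicate 1 their median log2 fold change was 1.66 with the Gata2 label and 2.67 in WT. The ranges of the 2 days did not overlap for Procr, Flt3 or the megakaryocyte sum. In bulk RNA, fewer cells that express a gene and less RNA per cell cannot be told apart, and the part of these shifts in the members' falls was not tested.

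At Day2 none of the 4 genes passed the test between the genotypes. Hlf was 81.2 and 93.3 CPM in the Gata2-labelled libraries, against 108, 97.2 and 91.1 CPM in WT (log2 difference −0.18 ± 0.17, SE). Mecom was 24.4 and 18.0 CPM, against 39.4, 23.5 and 23.4 CPM in WT (−0.44 ± 0.38, SE), and Prdm16 was 9.15 and 14.8 CPM, against 17.7, 10.05 and 14.5 CPM in WT (−0.23 ± 0.50, SE). These 3 overlapped. Mllt3 was 14.0 and 18.9 CPM in the Gata2-labelled libraries, against 22.1, 20.5 and 20.9 CPM in WT, without overlap (−0.36 ± 0.28, SE), as in 11.1% of all genes. All 4 had an adjusted p of 1 and 0% of all genes were called by edgeR, against 1070 genes at an unadjusted p under 0.05, 144 by DESeq2 and 21 by limma, none of them a member.

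By Week2 all 4 genes were at low levels in CD45.2 marrow and overlapped between the genotypes. Hlf was 3.53, 0.966 and 1.62 CPM in Gata2-labelled marrow, against 2.00, 1.70 and 1.04 CPM in WT (log2 difference 0.37 ± 0.63, SE). Mllt3 was 12, 17.4 and 9.92 CPM, against 15.4, 8.53 and 13.7 CPM in WT (0.06 ± 0.38, SE). Prdm16 was 2.21, 5.03 and 2.71 CPM, against 2.89, 2.74 and 3.98 CPM in WT (0.05 ± 0.50, SE). In these 3 genes the spread within each genotype exceeded the difference of the means. All 4 members had an adjusted p of 1.0, and edgeR called 0% of all genes, with 87 at an unadjusted p under 0.05 and 1 called by DESeq2, while 1.41% of genes had groups that did not overlap and no member did.

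Mecom divided the Week2 libraries across the genotypes. It was 1.05, 0.912 and 4.79 CPM in Gata2-labelled marrow, against 1.20, 3.46 and 3.26 CPM in WT (log2 difference −0.23 ± 0.75, SE). Replicate 3 of the Gata2-labelled marrow and replicates 2 and 3 of WT were high, and the other 3 libraries were near 1 CPM. The same libraries were high in loci within the Mecom introns: 6 TEC loci there summed to 0.414, 0.873 and 3.43 CPM in Gata2-labelled marrow, against 0.368, 2.44 and 1.93 CPM in WT. Mecomos, an antisense transcript that overlaps Mecom exons, was 0.200, 0.592 and 2.999 CPM in Gata2-labelled marrow, against 0.605, 2.57 and 1.73 CPM in WT. These libraries also held more TEC counts genome-wide, with 0.0541%, 0.0947% and 0.316% of counts in Gata2-labelled marrow, against 0.0773%, 0.210% and 0.201% in WT. Their endothelial marker sums were higher too, at 8.60, 15.4 and 24.8 CPM in Gata2-labelled marrow, against 9.93, 22.4 and 19.6 CPM in WT. Their T cell marker sums were lower, at 58.3, 101 and 29.5 CPM, against 76.6, 40.4 and 40.3 CPM in WT. So was the leukocyte gene Ptprc, at 1030, 748 and 436 CPM, against 810, 653 and 349 CPM in WT. The LSK marker sums were also lowest there. Neutrophil, erythroid, B cell, stromal and megakaryocyte sums did not divide the libraries this way. The TMM scaling factors did, at 0.728, 0.875 and 1.43, against 0.792, 1.10 and 1.26 in WT. Without a stated strand setting for the counting, Mecom and Mecomos reads cannot be told apart. The part of TEC reads, endothelial RNA, other cell types or scaling in the Mecom values was not tested. With voom quality weights Mecom was called lower in Gata2-labelled marrow (log2 difference −1.69, adjusted p = 0.0128), in a fit that called 12016 genes, and its log2 difference ran between −1.41 and 0.17 when 1 library was left out of edgeR's fit.

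**Figure D4:**
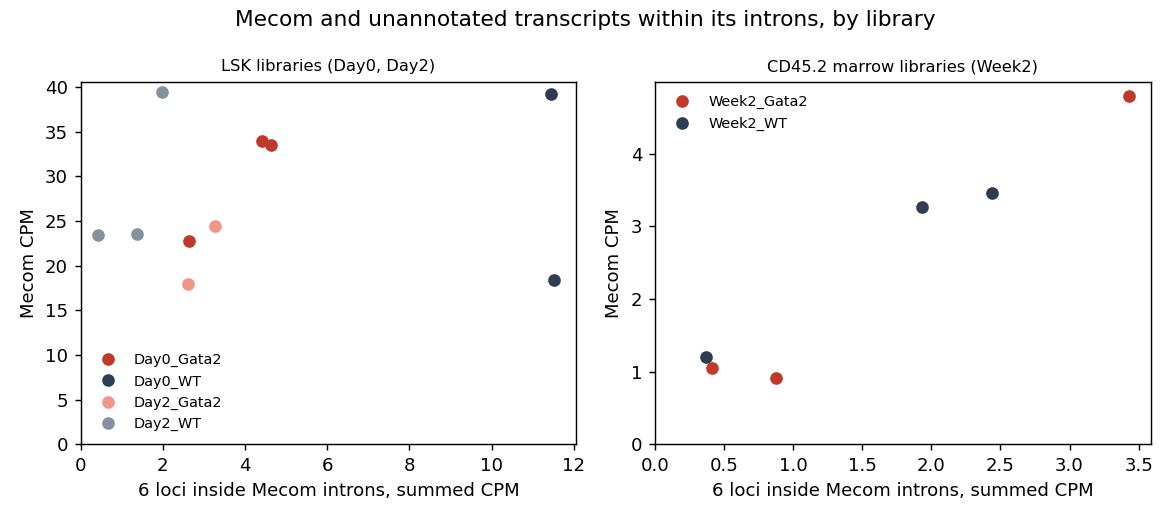
Each point is a library, with the summed CPM of 6 TEC loci inside Mecom introns on the x axis and Mecom CPM on the y axis; LSK libraries are left and CD45.2 marrow libraries right. In marrow the 3 libraries with Mecom at 3.26 CPM or more are those with 1.93 CPM or more from the intronic loci, and among LSK libraries both Day0 WT libraries stand at the right, at 11.5 and 11.4 CPM.

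In the LSK cells the intronic loci did not follow Mecom. They summed to 2.64, 4.42 and 4.63 CPM in the Gata2-labelled libraries of Day0, against 11.5 and 11.4 CPM in WT, where Mecom itself was 18.4 and 39.2 CPM. At Day2 they summed to 3.28 and 2.60 CPM in the Gata2-labelled libraries, against 1.98, 1.38 and 0.419 CPM in WT. Mecomos was between 0.559 and 0.929 CPM in the Gata2-labelled libraries of Day0, against 14.0 and 2.18 CPM in WT, so it was highest in WT replicate 1, the library with the lowest Mecom of Day0. Of the other members, Hlf and Mllt3 had no overlapping annotated gene, and Prdm16 overlapped B230104I21Rik, Gm13133 and Gm13134, which reached at most 0.125, 3.42 and 0.0510 unscaled CPM in LSK libraries. Gm13133, an antisense gene outside the Prdm16 exons, was 3.24 CPM in Day0 WT replicate 1, the library with the highest Prdm16. It was 0.314 CPM in WT replicate 2 and between 0.296 and 0.459 CPM in the Gata2-labelled libraries of Day0. Its part in the Prdm16 values was not tested. Counts are per gene and do not separate the EVI1 and MDS1-EVI1 transcripts of Mecom.

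Against the Day0 LSK cells, the Week2 marrow was lower in all 4 genes and in both genotypes, with no overlap. This sets mixed marrow beside a sorted progenitor fraction, so tissue and time cannot be told apart. Values here are on the scale of all 16 libraries. Hlf differed most: it averaged 2.02 ± 1.20 CPM in Gata2-labelled marrow and 128 ± 18.0 CPM in Gata2-labelled LSK cells (SD, n = 3 each), and 1.61 ± 0.387 CPM in WT marrow and 213 ± 29.3 CPM in WT LSK cells (SD, n = 3 and 2). The log2 fold changes were −5.98 ± 0.41 with the Gata2 label (SE, adjusted p = 3.56e-08) and −7.05 ± 0.43 in WT (SE, adjusted p = 2.57e-08). Mllt3 differed least, with log2 fold changes of −1.09 ± 0.26 with the Gata2 label (SE, adjusted p = 0.00585) and −2.33 ± 0.29 in WT (SE, adjusted p = 2.34e-05).

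Prdm16 lay between them, with −2.86 ± 0.44 in Gata2-labelled cells (SE, adjusted p = 0.000184) and −4.16 ± 0.49 in WT (SE, adjusted p = 1.46e-05). Mecom had −3.54 ± 0.72 in Gata2-labelled cells (SE, adjusted p = 0.00247) and −3.31 ± 0.75 in WT (SE, adjusted p = 0.00549). Of all 31164 genes, 43% were called with the Gata2 label, and 10.4% were called lower in marrow. In WT 33.5% were called, and 11.6% were called lower. All 4 members were called in every fit that left out 1 library, although Prdm16 in WT was −2.98 and Mllt3 −1.77 without Day0 WT replicate 1, and Mecom with the Gata2 label was −5.11 without replicate 3 of that marrow. Complete separation with marrow lower was seen in 18.2% of genes with the Gata2 label and in 15.5% in WT. The median log2 fold change of all genes was 1.22 with the Gata2 label and 0.95 in WT on this scale, so the members' falls are larger relative to the median gene. The summed LSK and stem cell markers were between 61.2 and 166 CPM in marrow, against between 1782 and 2324 CPM in the Day0 LSK libraries.

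The nearest genes by pattern differed for each member. Likeness was the root mean square difference of log2(CPM + 1), each gene centred on its mean over the 10 LSK libraries, among 10116 genes. Closest to Hlf were Gramd1b (0.12), Btg1 (0.13) and Ccnl1 (0.17), where the median gene was at 0.65. Closest to Mecom were Ift172 (0.19), C1galt1 (0.20) and Tek (0.21), Tek being the angiopoietin receptor, where the median was 0.54. Mllt3 was nearest to Zfp821 (0.18), Scaper (0.20) and Carns1 (0.21), with a median of 0.83, and Prdm16 to Pias3 (0.20), Shb (0.21) and Mapkbp1 (0.23), with a median of 1.01. Among the members, Mllt3 was the gene of rank 17 in likeness to Prdm16, and Hlf and Prdm16 were at ranks 36 and 108 for Mllt3. Hlf was at rank 294 for Prdm16, while Mllt3 and Prdm16 were at ranks 212 and 2589 for Hlf. Mecom was at rank 3742 for Hlf and 4695 for Prdm16. All these likenesses rest on the same 10 libraries, the Day0 WT pair with its spread included.

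Other stem cell transcription regulators mostly read lower at Day2, as 3 of the members did. Of 25 such genes, all tested, 11 were called lower and 1 higher in WT, where 17.9% of all genes were called lower. Their median log2 fold change was −0.77 against −0.11 over all genes. Hoxa9, a homeobox factor of progenitors, fell to 39.9 ± 1.56 CPM at Day2, against 117 ± 11.1 CPM at Day0 (SD, n = 3 and 2; adjusted p = 0.000184, edgeR). Egr1, an immediate early factor linked to quiescence, fell to 157 ± 43.0 CPM at Day2, against 1104 ± 94.2 CPM at Day0 (SD, n = 3 and 2; adjusted p = 0.000629, edgeR). Nkx2-3 (log2 fold change −1.85) and Nfix (−1.79), which supports stem cell survival, fell as well. The gene that rose was Gfi1b, a repressor that the megakaryocyte and erythroid lineages need, named after its value was seen (log2 fold change 2.01 in WT).

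In Gata2-labelled cells 6 of the 25 were called lower and 1 higher at Day2, where 4.82% of all genes were called lower. Their median was −0.26 against −0.07 over all genes. Without Day0 WT replicate 1, left out after the data were seen, their median was −0.28 with the Gata2 label and −0.74 in WT. The median over all genes was −0.10 in each. Among the 25, those of lowest p with the Gata2 label were Egr1 (log2 fold change −2.62), Hoxa9 (−0.77), Gfi1 (−1.28) and Erg (−1.10). Gfi1 is a repressor that restrains stem cell cycling, and Erg an ETS factor needed for stem cell upkeep. Gfi1b again was the one that rose (2.13). At Day0 none of the 25 was called between the genotypes. In the Gata2-labelled libraries 19 read lower and 6 higher, where 48.6% of all genes read lower. The median log2 difference was −0.15 against 0.02 over all genes. At Day2 none was called, 11 read lower and 14 higher, with a median of 0.06. In Week2 marrow, 13 read higher and 12 lower with none called between genotypes. Against Day0 LSK cells, 17 fell and 2 rose with the Gata2 label and 20 fell and 2 rose in WT. Of all genes, 10.4% and 11.6% were called lower in these comparisons.

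Some genes of partners of the 4 proteins were called in each direction. Of 12 genes of the complexes that MLLT3 joins, 3 fell and 2 rose in WT at Day2: Kmt2a, the histone methyltransferase fused to MLLT3 in leukaemia (log2 fold change −1.69), and Mllt6 (−1.90) were among those that fell, and the elongation factor gene Ell2 (1.47) and Men1, a KMT2A partner (0.40), rose. These counts stand beside the 29.9% of all genes called in WT, with 17.9% called lower. In Gata2-labelled cells 1 of the 12 fell and none rose, where 4.82% of all genes were called lower. Without Day0 WT replicate 1 the median log2 fold change of the 12 was −0.06 in WT and 0.001 with the Gata2 label. The median over all genes was −0.10 in each. Of 8 corepressors that bind MECOM or PRDM16, Ehmt2, a histone H3 methyltransferase, fell (−0.72) and the deacetylase Hdac2 rose (0.86) in WT. None of the 8 was called with the Gata2 label with all libraries in the fit. Without Day0 WT replicate 1 their median log2 fold change was 0.10 in WT and −0.03 with the Gata2 label. Of the PAR relatives Dbp and Tef and the opposing repressor Nfil3, Nfil3 alone was called, with 34.3 ± 4.22 CPM at Day2 and 8.81 ± 5.003 CPM at Day0 in WT (SD, n = 3 and 2; adjusted p = 0.00671, edgeR). Without Day0 WT replicate 1 the median log2 fold change of these 3 was −0.18 in WT and −0.43 with the Gata2 label.

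Among genes reported as targets of MECOM or PRDM16, Mfn2, a mitochondrial fusion gene, rose in WT at Day2 (log2 fold change 0.68). Gata2, itself a MECOM target, had a log2 difference of 0.81 with the Gata2 label at Day0 and 1.18 at Day2, with adjusted p of 0.341 and 0.207 (edgeR). With all libraries in the fit, edgeR called no gene of these 4 lists between the genotypes at Day0, Day2 or Week2. Without Day0 WT replicate 1, Gata2 was called higher and Ell2 lower with the Gata2 label at Day2.

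**Figure D5:**
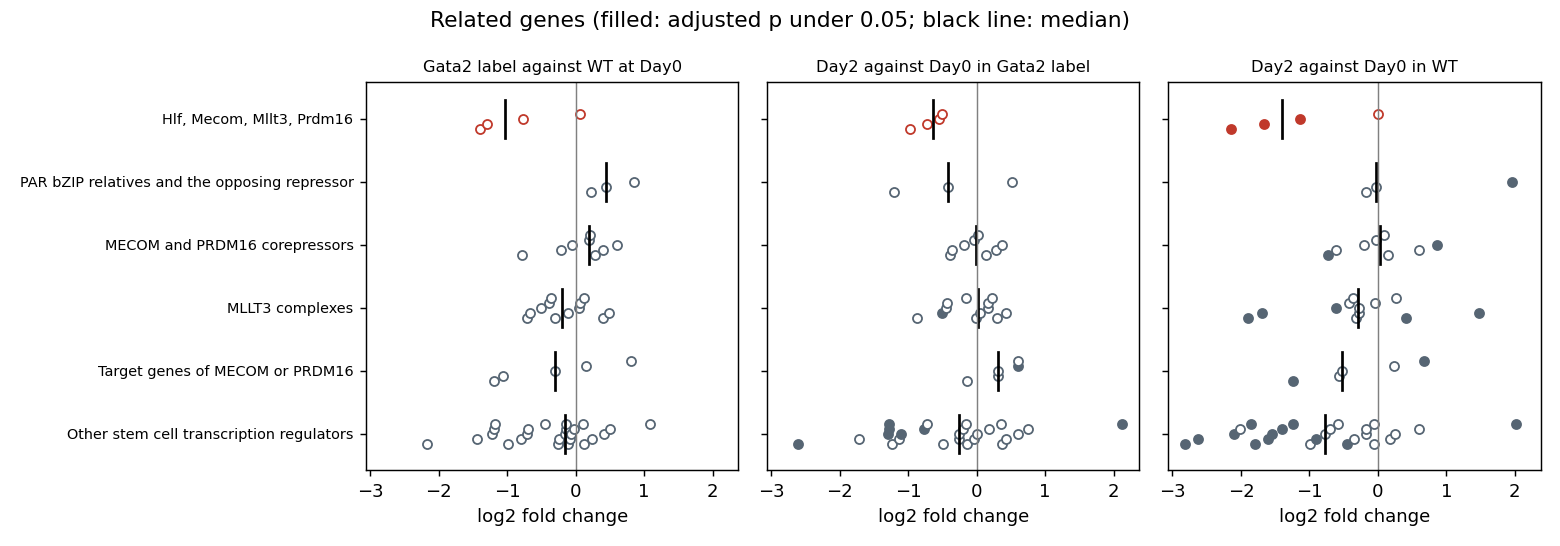
Each point is the log2 fold change of a gene in 1 of 6 lists, filled where the adjusted p is under 0.05, with the list's median as a black line; panels are Gata2 label against WT at Day0, Day2 against Day0 in Gata2-labelled cells, and Day2 against Day0 in WT. No point is filled in the first panel, and the 25 other stem cell regulators have 7 filled points in the second and 12 in the third.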

How the data were processed

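Per the submitters' processing notes, reads were processed with Trimmomatic 0.38 and STAR 2.5.2b and the build was mm10. How reads were counted, with which strand setting and gene models, is not given in the sources used here. Libraries came from either a low-input or a stranded kit, per the labels' protocols, which do not assign kits to samples. The deposited table holds raw read counts for 45706 gene IDs, of which 45143 were matched to a symbol in GENCODE M21, which also gave coordinates and exon lengths. Counts were tested with edgeR 4.0.16 (R 4.3.3; low count filter by group, TMM scaling, robust quasi-likelihood test, Benjamini-Hochberg adjustment over all genes, threshold 0.05): 19162 genes in the 10 LSK libraries, 36485 in the 6 Week2 libraries and 31164 in all 16, the last for Week2 against Day0. All 4 members passed the filter in each, and 8 comparisons gave 32 member tests. On simulated data the test recovered 63.5% of genes changed 4-fold at Day0 and 12.5% at Week2 between genotypes. The changed genes were drawn from those above a minimum expected count, and smaller changes were not simulated. All libraries otherwise shared a common mean per gene, so the departure of Day0 WT replicate 1 was not reproduced. DESeq2 1.42.0, limma 3.58.1 and other settings were alternatives. The genes named are the members, Gata2, the 3 genes nearest to each member in pattern, overlapping genes and up to 4 of lowest p in each list, some of which are not reported here. The members and lists were chosen with earlier results of these data known. Upstream sequences and motif shares come from RefSeq on GRCm38.p6. Intervals and standard errors cover the spread between libraries; no protein sequence was used here.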

Additional observations from a re-analysis of the deposited data

How the results depend on the processing

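The count of members called stayed within 1.5 times in 161 recounts over the 8 comparisons and moved in 11. For Day2 against Day0 with the Gata2 label the count of 0 became 1 without a low count filter and by DESeq2, 2 by limma with voom quality weights and 3 with the groups compared alone, and ran between 0 and 3 when 1 library was left out. In WT it was 1 by limma, against 3, and between 2 and 3 with 1 library left out. At Day0 between genotypes it was 2 by DESeq2 and between 0 and 3 with 1 library left out, the genotype difference of the change gave between 0 and 2, and Week2 gave 1 by limma. Shares of all genes called moved as well. With the Gata2 label over time they were 9.3% in the main fit, 18.1% by DESeq2 and 21.3% by limma. With the groups compared alone the share was 31.9%. Without a low count filter 1495 genes were called there, against 1782. In WT over time limma called 6.96%, against 29.9%. Between genotypes DESeq2 called 2.18% at Day0 and limma 32.9% at Week2. Some log2 values turned their sign. Mecom at Day0 gave −0.011 with upper quartile scaling, −0.0092 with the filter of 5 CPM in 2 libraries and −0.13 by limma, and in WT over time 0.013 with all 16 libraries in 1 fit and 0.38 with sex as a covariate. At Week2, upper quartile scaling gave −0.072 for Mllt3 and −0.12 for Prdm16, the 5 CPM filter −0.055 for Mllt3, limma −0.20 for Hlf, all 16 libraries in 1 fit −0.016 for Mllt3 and −0.060 for Prdm16, and protein-coding genes alone −0.018 for Prdm16. Same-numbered libraries did not deviate together in LSK cells (correlations between −0.17 and 0.11). At Week2 the correlations were 0.72, −0.77 and 0.50, without a common sign, and the numbers were not taken as pairs. With a replicate block, Mecom in WT over time was 0.045 and Prdm16 at Week2 −0.029, and no count of members called changed. Genes called over time were then 2747 in WT, against 5720, and 745 with the Gata2 label, against 1782. Between the genotypes the block gave 12 genes called at Week2 and 1 at Day2, against 0 in each. With 1 library left out, Mecom ran between −0.38 and 0.91 at Day0 and between −0.48 and 0.67 in WT over time. At Day2, Hlf ran between −0.28 and 0.020 and Prdm16 between −0.62 and 0.17. The genotype difference of Prdm16 ran between −0.040 and 1.68. At Week2, Hlf ran between −0.26 and 0.77, Mecom between −1.41 and 0.17, Mllt3 between −0.20 and 0.31 and Prdm16 between −0.38 and 0.25. The cause was not tested. Of the members' other log2 values, 627 kept direction and side of the threshold, 4 lost the call and 21 gained it. Genes called with 1 library left out ran between 0 and 8655 at Day0 and between 0 and 6733 for the genotype difference of the change, both highest without Day0 WT replicate 2, between 499 and 4863 over time with the Gata2 label (DESeq2 3471, limma 4088) and between 3191 and 12386 in WT (limma 1334, the groups compared alone 1199). For Week2 against Day0 they ran between 5420 and 16022 with the Gata2 label and between 4483 and 13483 in WT. DESeq2 gave no adjusted p for Mecom between Week2 and Day0, and 3 members fell below the 5 CPM filter at Week2. In the Week2 comparison of genotypes 12.5% of simulated 4-fold changes were recovered, although these libraries are the deepest.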
